A study of Mus musculus with 7 samples.

Results

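The genes described here are 9 targets of the transcription factor ATF4 that carry its CHOP arm and its secreted stress signals, namely *Ddit3*, *Trib3*, *Chac1*, *Atf3*, *Sesn2*, *Ddit4*, *Gdf15*, *Fgf21* and *Vldlr*. They were selected on their difference between the genotypes in these same samples, that is on the counts themselves, and were taken by symbol from a table of read counts with 14819 rows, in which 8 of the 9 have a row. *Fgf21* has no row, so its RNA could not be analysed here, and only the sequence at its promoter is shown. Why its row is absent was not tested. The counts come from primary hepatocytes (the main metabolic cells of the liver) of male mice, in 4 wild-type (WT) and 3 WDR6-WKO samples. In WDR6-WKO mice exon 2 of *Wdr6*, the gene of a WD40 repeat protein, was deleted in the whole body with CRISPR–Cas9, so every organ of the donors lacked it and not the hepatocytes alone. The livers were perfused with collagenase, and the cells were kept overnight in William's E medium with fetal bovine serum and were given no treatment. The study's methods give a default age for purchased C57BL/6J mice, which may not cover the knockout donors, and neither littermate status of the WT donors nor the day of each isolation is given in the sources used here, so differences between preparations and between genotypes cannot be told apart.

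ATF4 is the main effector of the integrated stress response. Kinases that sense amino acid shortage, misfolded protein in the endoplasmic reticulum, double-stranded RNA or haem shortage phosphorylate the initiation factor eIF2α, which lowers translation in general while ATF4 protein is made more efficiently. ATF4 then binds C/EBP-ATF response elements and raises genes of amino acid supply, and with them CHOP, the product of *Ddit3*, which pairs with C/EBP proteins and takes part in the response to lasting stress. In the liver the same programme also reaches genes whose products leave the cell or face its outside, among them the hormones GDF15 and FGF21 and the VLDL receptor.

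All 8 measured genes were higher in WDR6-WKO than in WT hepatocytes, and for each of them every WDR6-WKO library lay above every WT library. *Chac1*, which encodes a glutathione-degrading enzyme, stood 4.95-fold above WT, *Trib3* 3.61-fold and *Ddit3* 3.41-fold, whereas the fold differences of the other 5 genes lay between 1.33 for *Gdf15* and 1.90 for *Atf3*. Taken over the 8 genes, the log2 fold changes had a median of 0.80, beside 0.01 for all 14779 genes tested. Their adjusted p in edgeR's quasi-likelihood test was under 0.05 for 8 of 8, the share of all genes at that threshold being 12.8%, with 6.65% higher and 6.18% lower. Every WDR6-WKO library above every WT library was seen for 11.8% of all genes. Because the genes were chosen with this comparison in view, these counts are a description and no test of the 8 genes is given. In RNA from a whole culture, fewer cells of a type and less RNA per cell cannot be told apart.

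Levels are CPM, the reads counted on a gene rescaled by the total of the library times its TMM scaling factor. These factors lay between 0.9907 and 1.017. Values after ± are s.d. over n libraries, and a log2 fold change of 1 means a level 2 times as high. The totals lay between 17816913 and 23668940 counted reads. *Wdr6* itself was lower in every WDR6-WKO library, with raw counts of 769 to 972 in WT and 40 to 62 in WDR6-WKO, a log2 fold change of -4.20. WDR6-WKO replicate 3 stood apart from the other libraries of its genotype, with a chi-square per gene of 14.3 and 15.95 against them, whereas all other pairs of the same genotype lay between 3.80 and 8.22. Without it the log2 fold changes of the 8 genes were 1.82 for *Ddit3*, 1.89 for *Trib3*, 2.40 for *Chac1*, 0.95 for *Atf3*, 0.62 for *Sesn2*, 0.81 for *Ddit4*, 0.46 for *Gdf15* and 0.50 for *Vldlr*, and the adjusted p was under 0.05 for 8 of 8, when 28.6% of all genes passed.

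The letters to which ATF4 is known to be recruited are shown for these genes because they are named for a shared regulator. ATF4 targets are in part known through such sites, so their presence is a description. Promoters of GRCm38.p6 from RefSeq, from 250 bases before to 50 bases after each start, were found for 9 of 9 genes, and were searched on both strands for the C/EBP-ATF response element, spelled TGATGNAA. It was present in 5 of the 9 genes, which is 5 of the 11 promoters found for them, and in 3.97% of 32851 promoters of the same length. The lines below show these stretches in the direction of the gene, with the matched letters in capitals. Each match is on the strand opposite to the gene and is therefore read here as its reverse complement.
Chac1, chr2:119351038-119351067, plus strand: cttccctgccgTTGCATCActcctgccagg
Atf3, chr1:191183425-191183454, minus strand: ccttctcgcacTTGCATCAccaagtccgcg
Trib3, chr2:152344028-152344057, minus strand: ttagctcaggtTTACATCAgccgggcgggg
Fgf21, chr7:45615611-45615640, minus strand: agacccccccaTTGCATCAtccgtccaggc
Vldlr, chr19:27216809-27216838, plus strand: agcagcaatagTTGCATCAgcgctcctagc
*Chac1*, *Atf3*, *Fgf21* and *Vldlr* carry the same 8 letters, TTGCATCA, and *Trib3* differs from them inside the match. The exact letters TGATGCAA, a search added after the matches had been seen, were in 0.895% of all promoters. The match begins 193 bases before the RefSeq start for *Chac1*, 139 before it for *Fgf21*, 110 before it for *Atf3*, 200 before the later of its starts for *Vldlr* and 14 bases after it for *Trib3*. In the GENCODE annotation the *Atf3* and *Vldlr* stretches lie in an intron of a longer transcript, and the other 3 matches lie outside the annotated gene. The cAMP response element TGACGTCA, present in 1.79% of promoters, and the ER stress response element, CCAAT and CCACG separated by 9 bases and present in 0.119%, were in none of the 9 genes within these windows. The antioxidant response element core TGACNNNGC, in 12.4% of promoters, was found in *Sesn2* alone among the 9, as cgcagcgggcTGACAGAGCcgggcgagcg on the minus strand at chr4:132510474-132510502, in an annotated exon. These matches are letters in the reference sequence, and binding was not measured.

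**Figure D1:**
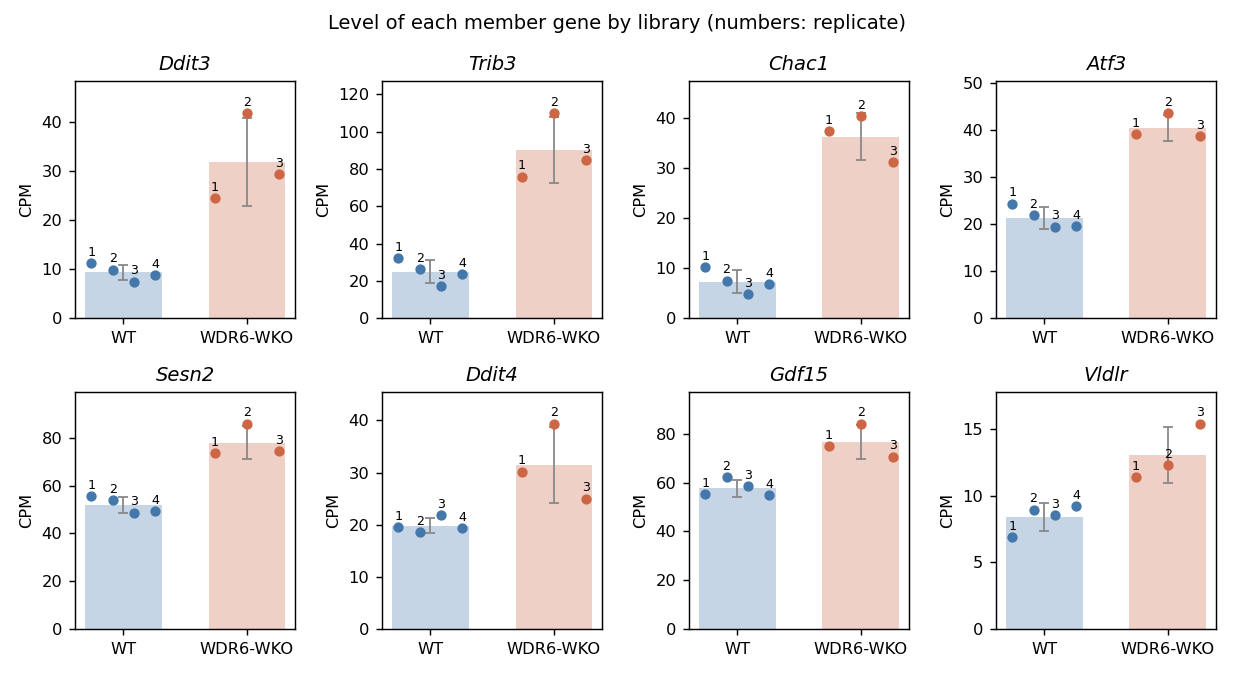
Level of each gene in CPM in the 4 WT and 3 WDR6-WKO libraries; points are libraries numbered by replicate, bars are means and error bars are s.d., and each axis starts at 0. No WDR6-WKO point reaches down to a WT point in any panel, and WDR6-WKO replicate 2 is the highest library in 7 of 8 panels, with *Vldlr* as the exception.

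*Ddit3*, on chromosome 10 from 127290774 to 127296288 (GRCm38), encodes CHOP, the transcription factor after which the arm is named. It was counted at 11.2, 9.90, 7.45 and 8.74 CPM in WT replicates 1 to 4, whereas WDR6-WKO replicates 1 to 3 gave 24.5, 41.8 and 29.3 CPM. The lowest WDR6-WKO library was 2.18 times the highest WT library, and WDR6-WKO replicate 2 was far above the other WDR6-WKO libraries. The means were 9.33 ± 1.62 CPM (n = 4) and 31.9 ± 8.94 CPM (n = 3), and the log2 fold change was 1.77 with a standard error (s.e.) of 0.20 (95% interval 1.32 to 2.22). Only 0.135% of genes had a larger log2 fold change. With each library left out in turn, it lay between 1.52, without WDR6-WKO replicate 2, and 1.93. In the annotation 81 of the 890 exon bases of *Ddit3* are also exon bases of genes on the other strand, *Mars*, which encodes methionyl-tRNA synthetase, and *Gm4189*. Because the sources used here do not say whether the counting used the strand, reads of these genes can be among those of *Ddit3*. *Mars* was counted on 1978 to 3064 reads per library, against 140 to 885 for *Ddit3*, and rose from 109 ± 6.38 to 132 ± 4.93 CPM, a log2 fold change of 0.28 (adjusted p = 0.00394 in the edgeR test, adjusted over all genes). The part of *Mars* reads in the level of *Ddit3* was not tested.

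*Trib3*, on chromosome 2 from 152337422 to 152344032, encodes a pseudokinase that CHOP and ATF4 induce together and that binds AKT and restrains ATF4 in turn. WT replicates 1 to 4 stood at 32.1, 26.5, 17.4 and 23.7 CPM, and WDR6-WKO replicates 1 to 3 at 75.9, 110 and 84.5 CPM. The groups were far apart, but within WT the highest library was 1.84 times the lowest. From 24.9 ± 6.10 CPM (n = 4) to 90.2 ± 17.9 CPM (n = 3), the log2 fold change was 1.85 with a standard error of 0.22 (95% interval 1.30 to 2.40), the rank being 16 of 14779. Leaving out libraries moved it from 1.68 up to 2.0. With the replicate number as a block in the fit the log2 fold change was 1.84, and *Trib3* was then not called. The related pseudokinase genes did not pass the test. *Trib1* stood at 90.0 CPM in WT and 87.5 CPM in WDR6-WKO, a log2 fold change of -0.04 (adjusted p = 0.733 in the edgeR test), and *Trib2*, at 4.14 and 3.32 CPM, had a log2 fold change of -0.30 (adjusted p = 0.457 in the edgeR test). The AKT kinase genes *Akt1* and *Akt2* had log2 fold changes of 0.07 and 0.01.

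*Chac1*, on chromosome 2 from 119351229 to 119354381, encodes a cyclotransferase that breaks down glutathione, and the response element printed above is in its promoter. Its levels were 10.2, 7.49, 4.79 and 6.83 CPM across WT replicates 1 to 4, and 37.3, 40.4 and 31.1 CPM across WDR6-WKO replicates 1 to 3. Here the gap between the groups was the widest of the 8 genes, the lowest WDR6-WKO library being 3.05 times the highest WT library. The means were 7.32 ± 2.23 CPM (n = 4) and 36.3 ± 4.73 CPM (n = 3), with a log2 fold change of 2.31, a standard error of 0.19 and a 95% interval of 1.88 to 2.73. That was the rank of 7 among all genes tested. The relative spread was larger in WT, at 30.4% of the mean, than in WDR6-WKO, at 13.0%, while counting error was at most 10.5% in any library. Its paralog *Chac2*, whose enzyme acts on glutathione more slowly, stood at 12.4 CPM in WT and 11.3 in WDR6-WKO, a log2 fold change of -0.13 (adjusted p = 0.418 in the edgeR test). Among 8 tested genes of glutathione synthesis and breakdown, none was higher and 2 were lower, the median being -0.06. At the same threshold 6.65% of all genes were higher and 6.18% lower. *Gclc*, the catalytic subunit of the first enzyme of synthesis, fell by 0.28 on the log2 scale, and *Oplah*, 5-oxoprolinase, which uses the product released by *Chac1*, fell by 0.34 (adjusted p = 0.00147 and 0.0238 in the edgeR test). Without WDR6-WKO replicate 3 the counts were 2 higher and 2 lower, and 1 was lower without WT replicate 3, without WT replicate 4 or without WDR6-WKO replicate 1.

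*Atf3*, on chromosome 1 from 191170296 to 191218039, encodes a basic leucine zipper factor that ATF4 induces early and that acts mostly as a repressor. It was counted at 24.4, 21.9, 19.5 and 19.6 CPM across WT replicates 1 to 4, and 39.1, 43.7 and 38.8 CPM across WDR6-WKO replicates 1 to 3. Within a genotype the highest library was 1.25 times the lowest in WT and 1.13 times in WDR6-WKO. The level went from 21.3 ± 2.31 CPM (n = 4) to 40.6 ± 2.74 CPM (n = 3), and the log2 fold change of 0.93 (s.e. 0.09) was 0.87 at the least when single libraries were left out. In the same family, *Jdp2*, which represses the same kind of site, rose from 10.7 ± 0.286 to 22.8 ± 2.12 CPM, a log2 fold change of 1.09 (adjusted p = 1.04e-06 in the edgeR test). *Fosl1* and *Fosb* also rose, by 0.59 and 0.70 on the log2 scale (adjusted p = 3.12e-05 and 0.00608 in the edgeR test), whereas *Fosl2* at 0.17 and *Fos* at -0.28 did not pass.

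*Sesn2*, on chromosome 4 from 132492032 to 132510501, encodes sestrin 2, a leucine-binding protein that holds back the growth kinase complex mTORC1. WT replicates 1 to 4 were at 55.6, 53.8, 48.7 and 49.3 CPM, and WDR6-WKO replicates 1 to 3 at 73.6, 86.0 and 74.3 CPM. The highest library was 1.14 times the lowest in WT and 1.17 times in WDR6-WKO, and the ranges of the genotypes were separate. The means were 51.9 ± 3.38 CPM (n = 4) and 78.0 ± 6.96 CPM (n = 3), which is a log2 fold change of 0.59 (s.e. 0.07), with 0.51 to 0.63 when single libraries were left out. Of its paralogs 1 was lower. *Sesn3* fell from 63.9 ± 2.88 to 50.4 ± 5.18 CPM, a log2 fold change of -0.34 (adjusted p = 0.00475 in the edgeR test), and *Sesn1* stood at 10.2 ± 0.149 and 8.19 ± 0.520 CPM, a log2 fold change of -0.32 that narrowly missed the threshold (adjusted p = 0.0504 in the edgeR test).

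*Ddit4*, on chromosome 10 from 59949669 to 59951834, encodes REDD1, which restrains mTORC1 through the TSC complex. Its levels were 19.6, 18.6, 21.8 and 19.3 CPM across WT replicates 1 to 4, and 30.2, 39.4 and 25.0 CPM across WDR6-WKO replicates 1 to 3. The WT libraries were nearly level, whereas the WDR6-WKO libraries spread widely, and the lowest of them was 1.15 times the highest WT library. From 19.8 ± 1.38 CPM (n = 4) to 31.5 ± 7.31 CPM (n = 3), the log2 fold change was 0.67 with a standard error of 0.13. Its size leaned on single libraries, with 0.48 without WDR6-WKO replicate 2 and 0.81 without WDR6-WKO replicate 3. Its paralog *Ddit4l* had a log2 fold change of -0.05 (adjusted p = 0.788 in the edgeR test). The genes of the complexes through which sestrin 2 and REDD1 act were near level, with log2 fold changes of -0.02 for *Tsc1*, -0.08 for *Tsc2*, -0.17 for *Nprl2*, 0.17 for *Wdr24*, -0.11 for *Mtor* and 0.05 for *Rptor*, none of them past the threshold.

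*Gdf15*, on chromosome 8 from 70629393 to 70632456, encodes a secreted hormone that lowers food intake through a receptor in the hindbrain. It was at 55.2, 62.2, 58.6 and 55.0 CPM across WT replicates 1 to 4, and 75.1, 84.3 and 70.7 CPM across WDR6-WKO replicates 1 to 3. The ranges were separate by the least margin of the 8 genes, the lowest WDR6-WKO library being 1.14 times the highest WT library. The means were 57.7 ± 3.38 CPM (n = 4) and 76.7 ± 6.94 CPM (n = 3). Its log2 fold change of 0.41 (s.e. 0.07, 95% interval 0.27 to 0.56) was the smallest of the 8, and 7.42% of all genes had a larger one. It moved between 0.34 and 0.46 when single libraries were left out. Among related secreted factors of the liver, *Inhbe*, the activin E subunit, was at 2.42, 1.89, 2.18 and 2.06 CPM across WT replicates 1 to 4, and 4.40, 5.43 and 5.70 CPM across WDR6-WKO replicates 1 to 3, and rose by 1.27 on the log2 scale (adjusted p = 0.000126 in the edgeR test). *Inhba*, *Inhbb* and *Inhbc* had log2 fold changes of 0.09, -0.16 and -0.52 and did not pass. Of the receptor genes, *Ret*, the partner of the GDF15 receptor, was near the lower limit at 0.512 CPM in WT and 0.529 in WDR6-WKO, *Fgfr1* rose by 0.28 (adjusted p = 0.0041 in the edgeR test), and *Klb*, the co-receptor of FGF21, stood at 1.49 and 0.924 CPM (adjusted p = 0.162 in the edgeR test).

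*Vldlr*, on chromosome 19 from 27216484 to 27254231, encodes the receptor that takes up triglyceride-rich lipoproteins, and its RNA is sparse in these cells. Its levels were 6.86, 8.95, 8.51 and 9.19 CPM across WT replicates 1 to 4, and 11.4, 12.3 and 15.4 CPM across WDR6-WKO replicates 1 to 3. Unlike the other genes it was highest in WDR6-WKO replicate 3 and lowest in WT replicate 1. The means were 8.38 ± 1.05 CPM (n = 4) and 13.0 ± 2.10 CPM (n = 3), a log2 fold change of 0.63 with a standard error of 0.13, and 0.50 to 0.72 when single libraries were left out. The related receptor gene *Lrp8*, at 28.0 CPM in WT and 29.7 CPM in WDR6-WKO, had a log2 fold change of 0.09 (adjusted p = 0.501 in the edgeR test).

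**Figure D2:**
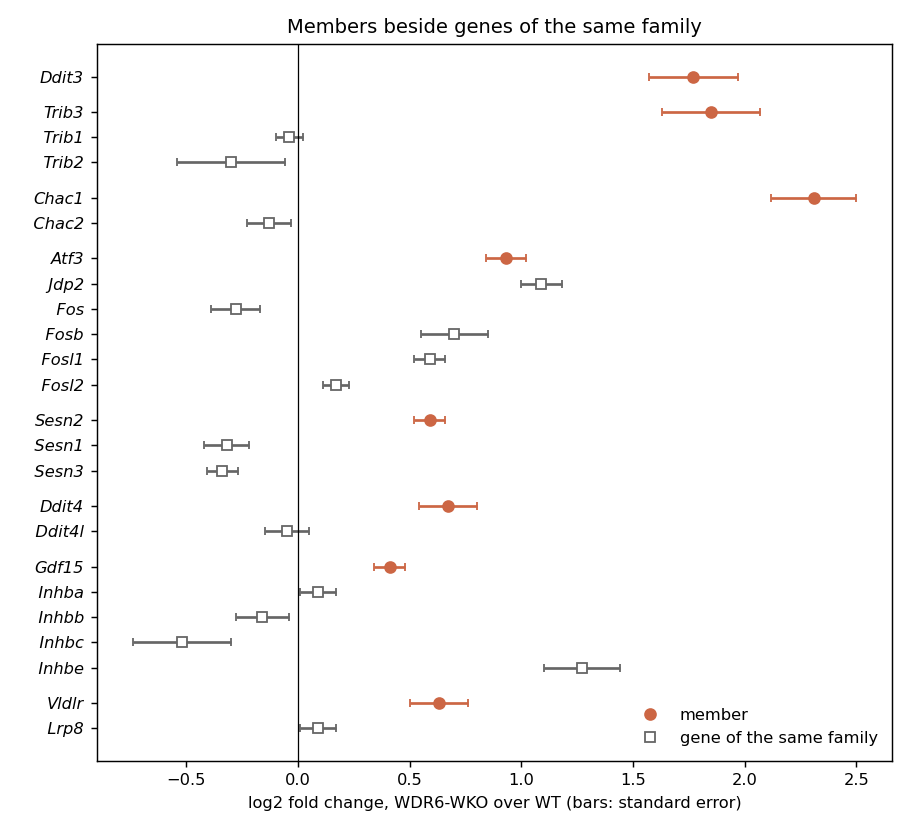
Log2 fold change of WDR6-WKO over WT for the 8 genes (filled circles) and for genes of the same family (open squares); bars are standard errors. *Trib1*, *Trib2*, *Chac2*, *Sesn1*, *Sesn3*, *Ddit4l* and *Lrp8* lie between -0.34 and 0.09, whereas *Jdp2* at 1.09 and *Inhbe* at 1.27 lie above the member they are drawn with.

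The plot of families sets the genes beside their relatives. Of 17 family members tested, 4 were higher and 1 was lower, beside 6.65% and 6.18% of all genes. The log2 fold changes of the 17 had a median of -0.04. The higher ones belong with *Atf3* and *Gdf15*, and no relative of *Trib3*, *Chac1*, *Ddit4* or *Vldlr* passed the test. Without WDR6-WKO replicate 3 the counts were 5 higher and 3 lower, when 14.5% of all genes were higher and 14.1% lower. Of 25 tested receptors and direct partners of the members, 2 rose, beside 6.65% of all genes higher. They were *Fgfr1* and *Sqstm1*, the cargo receptor that sestrin 2 binds, which rose by 0.57 (adjusted p = 0.000988 in the edgeR test). The median of the 25 was 0.03. Without WDR6-WKO replicate 3 the counts were 6 higher and 1 lower, beside the same 14.5% and 14.1% of all genes.

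Levels can be set against each other only per length of transcript. Per kilobase of exon, *Gdf15* was the most abundant of the 8 genes in WT hepatocytes at 31.2 CPM per kilobase, above 85.0% of the genes that have a length. *Sesn2* at 14.9, *Trib3* at 12.3, *Ddit4* at 11.3, *Ddit3* at 10.5 and *Atf3* at 9.90 CPM per kilobase followed, then *Chac1* at 4.47 and *Vldlr* at 1.01. The order was different in WDR6-WKO hepatocytes. There *Trib3*, at 44.5 CPM per kilobase, stood above *Gdf15* at 41.4 and *Ddit3* at 35.8, and *Chac1* at 22.2 was level with *Sesn2* at 22.4 and above *Atf3* at 18.8 and *Ddit4* at 18.0. *Vldlr* remained the lowest at 1.57, above 24.0% of genes. Neighbours in this order whose means differed by less than the larger s.d. of the pair were, in WT, *Sesn2* and *Trib3*, *Trib3* and *Ddit4*, *Ddit4* and *Ddit3*, and *Ddit3* and *Atf3*. In WDR6-WKO they were *Trib3* and *Gdf15*, *Gdf15* and *Ddit3*, *Sesn2* and *Chac1*, and *Atf3* and *Ddit4*.

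**Figure D3:**
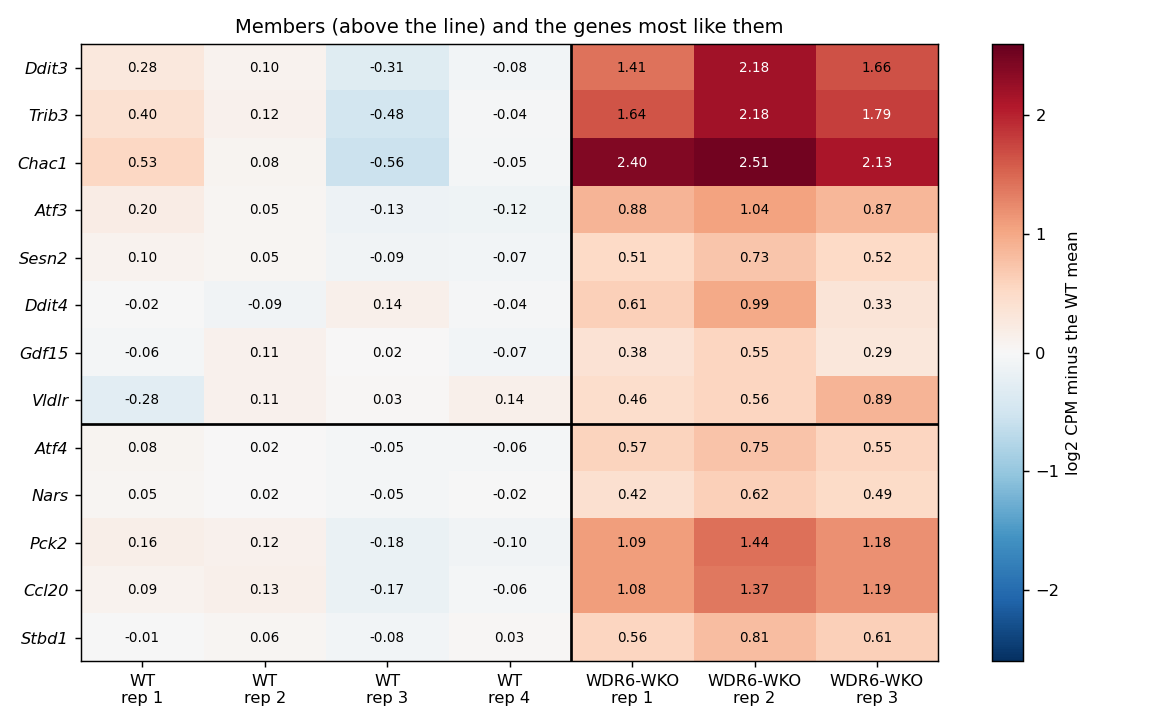
Log2 CPM minus the WT mean for each library (columns), for the 8 genes above the line and the 5 genes most like them below it; red is above and blue below the WT mean. *Chac1*, *Trib3* and *Ddit3* range from 1.41 to 2.51 in WDR6-WKO libraries and also spread the most among WT libraries, from -0.56 to 0.53.

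Within each genotype the libraries were not alike, and the genes differed in which library stood high. The median of the 8 genes relative to the WT mean was 0.15, 0.09, -0.11 and -0.06 on the log2 scale in WT replicates 1 to 4. The WDR6-WKO replicates 1 to 3 had medians of 0.75, 1.02 and 0.88. *Ddit3*, *Trib3*, *Chac1*, *Atf3* and *Sesn2* had the same order of WT libraries, replicate 1 above 2, 2 above 4 and 4 above 3. That order was seen in 62.5% of the 8 genes, in 9.09% of 22 other ATF4 targets and in 5.45% of all genes tested. WDR6-WKO replicate 2 was the highest WDR6-WKO library for 7 of 8 genes, or 87.5%, for 81.8% of the other ATF4 targets and for 33.2% of all genes. The order was picked out after it had been seen, so these shares are a description.

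To describe this apart from the genotype difference, the genotype mean was taken from each library, and the deviations were correlated between genes over the 7 libraries. Among *Ddit3*, *Trib3*, *Chac1*, *Atf3* and *Sesn2*, the 10 pairs had Pearson's r between 0.70 and 0.95, with a median of 0.89. These 5 genes were grouped by their shared order of WT libraries, which by itself raises r among them, so the grouping is no evidence of likeness. *Ddit3* and *Sesn2* were the closest pair. The other 18 pairs lay between -0.63 and 0.71, with a median of 0.11, the highest of them being *Ddit4* with *Gdf15*. *Vldlr* deviated against the other genes, with r from -0.63 with *Chac1* to -0.13 with *Gdf15*. With *Atf4*, the r of the deviations was 0.98 for *Sesn2*, 0.91 for *Ddit3*, 0.89 for *Atf3*, 0.82 for *Trib3*, 0.69 for *Chac1*, 0.63 for *Ddit4*, 0.62 for *Gdf15* and -0.54 for *Vldlr*. The points share their libraries and their scaling, and 7 libraries of 2 genotypes leave few independent deviations.

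**Figure D4:**
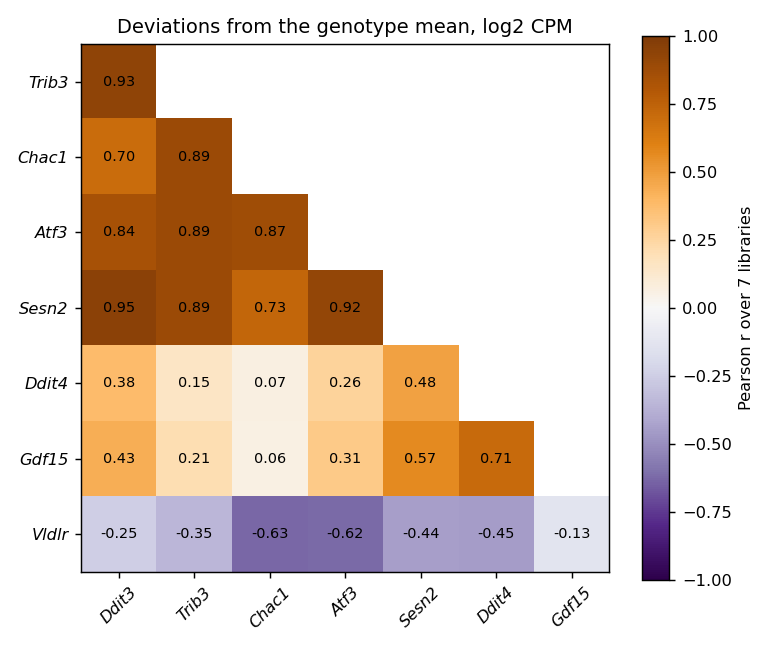
Pearson's r between the genes' deviations from their genotype mean (log2 CPM, 7 libraries), orange for positive and purple for negative. The block of *Ddit3*, *Trib3*, *Chac1*, *Atf3* and *Sesn2* holds r of 0.70 to 0.95, and every value in the row of *Vldlr* is below 0.

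The size of the spread also separated the genes. The pooled s.d. of the log2 level within genotypes was 0.37 for *Chac1*, 0.34 for *Trib3* and 0.32 for *Ddit3*, above 99.0%, 99.6% and 98.4% of the genes of like level. *Ddit4*, at 0.22, was above 96.2% of such genes. The other 4 genes lay between 73.8% for *Gdf15* and 82.7% for *Vldlr*. Thus 4 of the 8 genes varied more between replicates than nearly all genes of like level, and the means of *Ddit3*, *Trib3* and *Chac1* carry that error.

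The genes whose levels followed the members most closely over the 7 libraries, by Pearson's r with the mean of the 8 standardised log2 levels, were *Nars* (0.9967), *Atf4* (0.9967), *Ccl20* (0.9961), *Pck2* (0.9960) and *Stbd1* (0.9960). *Nars* encodes asparaginyl-tRNA synthetase and went from 345 ± 11.1 CPM (n = 4) to 492 ± 35.1 CPM (n = 3). *Pck2*, mitochondrial phosphoenolpyruvate carboxykinase, was at 26.9, 26.3, 21.3 and 22.5 CPM across WT replicates 1 to 4, and 51.3, 65.4 and 54.7 CPM across WDR6-WKO replicates 1 to 3, in the same order of libraries as *Ddit3*. *Ccl20*, a chemokine gene, went from 4.74 ± 0.458 to 11.0 ± 1.15 CPM, and *Stbd1*, whose protein binds glycogen, from 35.0 ± 1.44 to 55.5 ± 5.09 CPM. With the genotype mean removed, r was still between 0.87 for *Stbd1* and 0.97 for *Pck2*. They were chosen for this likeness, so it is a description, and the genotype difference enters r.

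The RNA of *Atf4*, the factor upstream of the 8 genes, was at 195, 187, 178 and 177 CPM across WT replicates 1 to 4, and 273, 310 and 269 CPM across WDR6-WKO replicates 1 to 3. The ranges were separate, with *Atf4* RNA rising by 0.62 on the log2 scale (s.e. 0.06, adjusted p = 3.25e-06 in the edgeR test). This rise was below those of *Ddit3*, *Trib3*, *Chac1* and *Atf3*, beside those of *Sesn2*, *Ddit4* and *Vldlr*, and above the 0.41 of *Gdf15*. ATF4 protein was not measured here. Of the 7 genes listed upstream, 3 rose and 1 fell, beside 6.65% of all genes higher and 6.18% lower. When any single WT library or WDR6-WKO replicate 2 was left out, 2 rose. *Eif2ak2*, the kinase PKR that binds double-stranded RNA, rose by 0.40 and *Ppp1r15b*, a constitutive eIF2α phosphatase subunit, by 0.18 (adjusted p = 0.00182 and 0.0216 in the edgeR test). *Eif2ak3*, the kinase PERK of the endoplasmic reticulum, fell by 0.33 on the log2 scale (adjusted p = 0.0124 in the edgeR test), a call not made without WDR6-WKO replicate 2. *Eif2ak1* at -0.08, *Eif2ak4* at -0.09 and *Impact* at 0.19 did not pass.

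Beside the CHOP arm, 20 of 22 other ATF4 targets rose and none fell, with a median log2 fold change of 0.85, so the median of the 8 genes was close to that of this list. *Slc7a1*, an arginine transporter, rose by 1.01, *Psph* and *Psat1*, enzymes of serine synthesis, by 0.99 and 0.96 (adjusted p = 5.88e-08, 7.6e-07 and 7.81e-07 in the edgeR test). With single libraries left out, 18 to 20 of the 22 were higher. This list overlaps with one seen earlier to be higher in these samples and is no independent evidence of direction. Partners and targets of CHOP were listed together. Of these 11 genes, 3 rose and 1 fell, with a median of 0.20, beside 6.65% of all genes higher and 6.18% lower. The gene that fell, *Cebpa*, is a C/EBP partner and not a target. *Ppp1r15a*, the eIF2α phosphatase subunit GADD34 that CHOP induces, rose from 31.3 ± 1.92 to 53.5 ± 9.10 CPM, a log2 fold change of 0.77 (adjusted p = 8.49e-05 in the edgeR test), and *Bbc3*, which encodes the death factor PUMA, rose by 0.60 (adjusted p = 0.0422 in the edgeR test). *Cebpg*, a binding partner of ATF4, rose by 0.25, and *Cebpa*, a hepatocyte factor that CHOP can bind, fell by 0.29 (adjusted p = 0.0076 and 0.0186 in the edgeR test). *Tnfrsf10b*, the death receptor DR5, stood at 42.9 CPM in WT and 42.3 in WDR6-WKO, *Bcl2l11* at 23.6 and 24.1 and *Ero1l* at 94.0 and 90.4, none past the threshold. The fall of *Cebpa* was not called without WT replicate 1, WT replicate 2 or WDR6-WKO replicate 1. Of the 3 higher genes *Bbc3* had the adjusted p closest to the threshold. That count of 3 was 2 with limma-voom and without WT replicate 2, 3 or 4 or WDR6-WKO replicate 1 or 2. It was 4 with DESeq2 and without WDR6-WKO replicate 3.

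**Figure D5:**
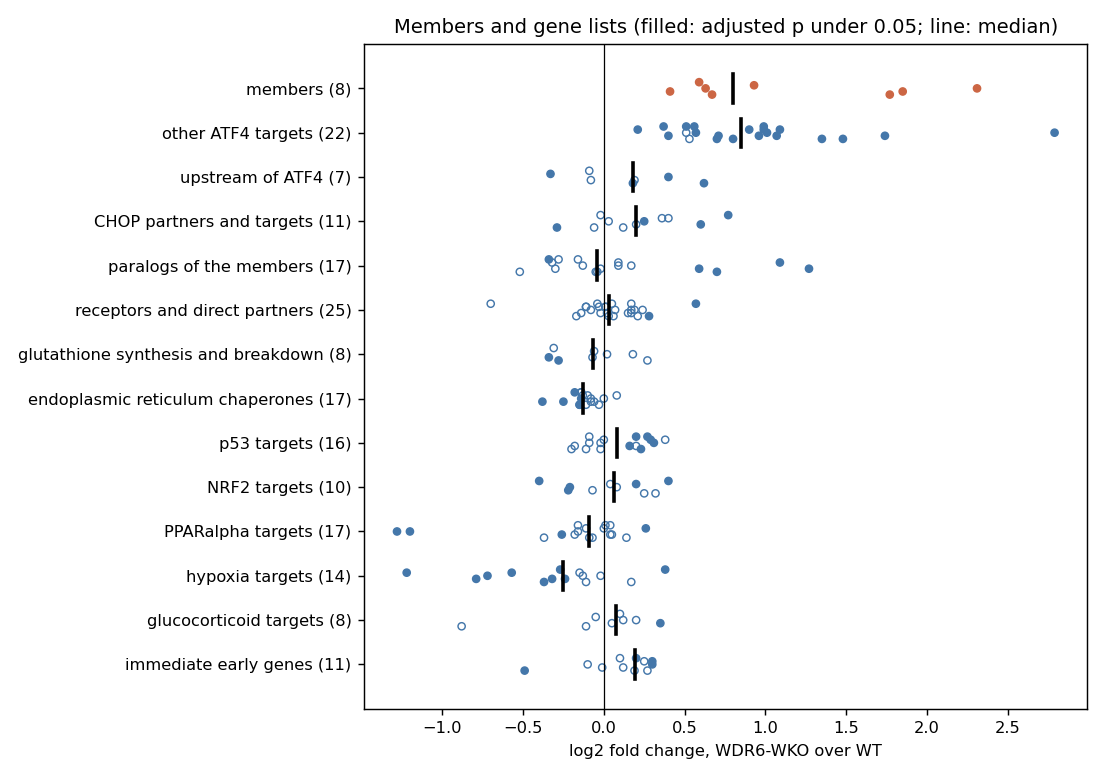
Log2 fold change of WDR6-WKO over WT for the 8 genes and the genes of 13 lists; each point is a gene, filled where the adjusted p is under 0.05 in the edgeR test, and the black line is the median of the list. The 8 genes and the other ATF4 targets have medians of 0.80 and 0.85, and the medians of the other 12 lists lie between -0.26 and 0.20.

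Several members are known to answer to regulators other than ATF4, and lists of their other targets give values to set beside them. Among all genes tested 6.65% were higher and 6.18% lower, and 14.5% and 14.1% without WDR6-WKO replicate 3. *Ddit3* is also raised by the unfolded protein response, and of 17 chaperones and factors of the endoplasmic reticulum none rose and 5 fell, with a median log2 fold change of -0.13, *Xbp1* falling by 0.38 (adjusted p = 5.02e-05 in the edgeR test). That count was 9 without WDR6-WKO replicate 3 and 2 or 3 without any other single library. *Sesn2* and *Gdf15* are targets of p53, and 6 of 16 other p53 targets rose and none fell, *Plk2* by 0.31 and *Cdkn1a* by 0.23 (adjusted p = 0.00027 and 0.013 in the edgeR test), with a median of 0.08. The p53 count fell to 3 without WT replicate 1 or 2 and to 2 without WT replicate 4, WDR6-WKO replicate 1 or WDR6-WKO replicate 2. *Ddit4* is raised by hypoxia and by glucocorticoids. Of 14 hypoxia targets 1 rose and 8 fell, with a median of -0.26, *Bnip3* falling by 0.72 and *Egln3* by 0.79 (adjusted p = 1.12e-06 and 1.31e-05 in the edgeR test), and of 8 glucocorticoid targets 1 rose, *Tsc22d3*, by 0.35 (adjusted p = 0.00741 in the edgeR test). The single higher hypoxia gene, *Adm*, was not called when any library other than WDR6-WKO replicate 3 was left out, and 3 glucocorticoid targets rose without WDR6-WKO replicate 3. *Fgf21* and *Vldlr* are PPARα targets, and of 17 others 1 rose and 3 fell, with *Angptl4*, which encodes a lipoprotein lipase inhibitor, rising by 0.26 (adjusted p = 0.00772 in the edgeR test). Without WDR6-WKO replicate 3, 2 rose and 5 fell, 1 fell without WT replicate 2, and none rose without WDR6-WKO replicate 2. *Sesn2* is an NRF2 target, and of 10 others 2 rose and 3 fell, *Gstm1* by 0.40 on the log2 scale (adjusted p = 0.000127 in the edgeR test), with 1 higher without WDR6-WKO replicate 1. *Atf3* behaves as an immediate early gene, and of 11 such genes 3 rose and 1, *Egr1*, fell by 0.49 (adjusted p = 2.9e-05 in the edgeR test), with 7 higher without WDR6-WKO replicate 3 and 1 higher without WT replicate 2 or WDR6-WKO replicate 1.

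Markers of the cell types a perfused liver holds were set beside the label of hepatocytes, and the purity of the cultures was not tested. At the same threshold 6.65% of all genes were higher and 6.18% lower. *Alb*, albumin, was the most abundant hepatocyte marker, at 7370 ± 730 CPM (n = 4) in WT and 6480 ± 363 CPM (n = 3) in WDR6-WKO. Of 6 tested hepatocyte markers 4 were lower and none higher in WDR6-WKO, the median of their log2 fold changes being -0.35, and their summed level, most of it *Alb*, was 8009 to 9574 CPM in WT and 7413 to 7912 CPM in WDR6-WKO libraries. Among other hepatocyte genes, *Cps1* stood at 39.4 CPM in WT and 24.5 in WDR6-WKO, *Asgr1* at 13.8 and 10.2, and *Apoa1* at 719 and 446. *Ttr* stood at 471 and 457 CPM, and *Fabp1*, a gene of the PPARα list, at 0.760 and 0.674. Neither *Ttr* nor *Fabp1* passed (adjusted p = 0.56 and 0.761 in the edgeR test). Markers of Kupffer cells, the macrophages of the liver, were all counted, 4 of 13 higher and none lower, with sums of 863.9 to 943.9 CPM in WT and 999.7 to 1199 CPM in WDR6-WKO. Cholangiocyte markers gave 2 of 5 higher, with sums of 3068 to 3360 CPM in WT and 3713 to 4306 CPM in WDR6-WKO, most of it *Spp1* at 2980 and 3690 CPM. *Krt19*, another marker of cholangiocytes, stood at 148 CPM in WT and 143 in WDR6-WKO. Stellate cell markers gave 2 higher and 1 lower of 7, and endothelial markers none of 6, and of 6 blood leukocyte markers *Ptprc* alone was in the table. By library, the Kupffer cell markers stood 0.18, 0.34 and 0.08 above the WT mean in WDR6-WKO replicates 1 to 3 (median log2 difference), beside 0.75, 1.02 and 0.88 for the 8 stress genes, and the part of other cell types in the levels of these genes was not tested.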

How the data were processed

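RNA of primary hepatocytes (WT, n = 4; WDR6-WKO, n = 3) was sequenced on an Illumina HiSeq. Per the labels, Bowtie2 2.2.3 and mm10 (GRCm38) were used. The authors deposited raw read counts per gene symbol; the counter, annotation and strand setting are not given in the sources used here. The 14819 rows have totals of at least 50, which leaves out sparsely read genes, and 21 rows hold spreadsheet dates as names.

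Counts were scaled by TMM and tested with edgeR 4.0.16 (filterByExpr, robust quasi-likelihood, genotype alone, Benjamini-Hochberg over 14779 genes; threshold 0.05) in R 4.3.3. The study's methods name DESeq2. Levels are TMM-scaled CPM, and intervals are 95%. Standard errors came from the log2 fold change and its F. No pair of libraries agreed within sampling noise. The study's methods call replicates biological in general, but no source used here ties each library to its own mouse, and p-values measure the spread between libraries. Depth limits *Vldlr*, *Chac1* and *Ddit3* most, with as few as 90 counted reads.

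The members and the lists were chosen with earlier results of these data known. Named genes are the members, *Wdr6*, all genes listed as family or upstream, up to 3 genes per list with the smallest adjusted p under 0.05, and the 5 most alike. Some genes that meet this rule are not reported here. Further genes of the lists, and *Mars*, were named after their values were seen. Positions and exon lengths came from GENCODE M21, promoter letters from RefSeq (GRCm38.p6). Alternatives were DESeq2 1.42.0, limma-voom (limma 3.58.1), other scalings and filters, the study's thresholds, the replicate number as a block, and leaving out each library. The search for exact promoter letters was added after seeing the data.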

Additional observations from a re-analysis of the deposited data

Results flagged for a closer look

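A gap inside a genotype was looked for in 21 values over the 4 WT libraries, the levels of the 8 genes and the medians of the 13 lists, by Dixon's criterion, which chance alone meets in about 1 of 20 groups. It was met by 1 value. The median of the 8 glucocorticoid targets was 0.05 above the WT mean in WT replicate 1 (log2 scale), with a gap of 0.962 of the WT range to the nearest library, past the 95% critical value for 4 samples. None of the 8 stress genes met it.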

How the results depend on the processing

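Over 729 comparisons of a value with its alternative, 643 kept their size, within 1.5 times for a count or 1 s.d. for a value. A change of sign was looked for only in the fold changes of the 8 genes and their median, and none was seen. Among the lists, the median of the family members, near 0, went from -0.04 to 0.01 without WDR6-WKO replicate 2 or without WDR6-WKO replicate 3. The median of the 8 genes was 0.77 to 0.88 with single libraries left out and 0.79 to 0.83 otherwise, and no fold change of a single member moved by more than its s.d. within genotypes. The replicate number was tried as a block. Deviations of the 3 pairs of libraries that share a number had r of 0.02 to 0.04, beside -0.12 to 0.12 for 9 other pairs. By these values 2 WT libraries were best matched by their own number. So few pairs cannot decide whether samples of the same number belong together. With the replicate block 7 of the 8 genes were called, *Trib3* being the exception at a log2 fold change of 1.84, the median of the CHOP partners was 0.11, and the lower counts were 1 for glutathione and 3 for chaperones. With library sizes alone, 1212 genes were higher and 696 lower, the median of all genes shifting by 0.03. The medians were then 0.05 for receptors and partners (also with limma-voom), -0.04 for glutathione, -0.07 for PPARα, 0.11 for p53 and -0.10 for chaperones, with 1 glutathione gene, 2 glucocorticoid targets and 5 immediate early genes higher and 3 chaperones lower. Of the family members 2 were lower with median-of-ratios size factors, limma-voom or at least 10 counts in every sample. The cause of these shifts was not tested.

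With single libraries left out, the genes called numbered 1032 to 4233, 570 to 2150 higher and 462 to 2083 lower, both extremes falling on WDR6-WKO libraries, replicate 2 for the lowest and replicate 3 for the highest. The ranges were 0.75 to 0.96 for the median of the other ATF4 targets. The CHOP partners had 2 to 4 higher, 0 to 1 lower and a median of 0.07 to 0.27. Upstream genes had 2 to 3 higher, 0 to 1 lower and 0.11 to 0.19. Family members had 1 to 3 lower, and their median, near 0, went from -0.09 to 0.01. Receptors and partners had 2 to 6 higher, 0 to 1 lower and a median of 0.02 to 0.06, and glutathione genes 0 to 2 higher and 1 to 2 lower. PPARα targets had 0 to 2 higher, 1 to 5 lower and -0.12 to -0.06, p53 targets 2 to 8 higher, 0 to 2 lower and 0.05 to 0.11, and NRF2 targets 1 to 3 higher. Hypoxia targets had 0 to 2 higher, glucocorticoid targets 1 to 3 higher, chaperones 2 to 9 lower and -0.13 to -0.11, and immediate early genes 1 to 7 higher and 0.13 to 0.23.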
